A study of Mus musculus with 6 samples.

Results

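The keratins and squamous differentiation genes of the mouse uterus were compared between Sox17f/f and Sox17ed/ed mice. The members were every gene whose symbol is Krt followed by digits alone, 50 keratins in all, and 10 genes of squamous differentiation: Trp63, Ivl, Lor, Flg, Sfn, Tgm1, Tgm3, Evpl, Ppl and Col17a1. These 60 members stood among 20145 genes named on the array. The RNA of 3 Sox17f/f and 3 Sox17ed/ed whole uteri was measured on 1-colour Agilent G3 Mouse GE arrays, 1 uterus to an array. Females were mated at 8 to 10 weeks of age, and the uteri, free of embryos, were taken at gestation day (GD) 3.5. Both genotypes carried floxed Sox17 alleles. Sox17ed/ed mice, labelled LtfiCre/+ Sox17 f/f, also carried 1 iCre allele at the Ltf locus, which is active in the uterine epithelium from puberty on, and Sox17f/f mice carried no iCre.

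Keratins form the intermediate filaments of epithelial cells, and each filament pairs a type I with a type II keratin. Simple epithelia such as the lining of the uterus use KRT8, KRT18, KRT19 and KRT7, the basal layer of stratified epithelia uses KRT5 with KRT14 and KRT15, and the layers above it use KRT1, KRT10, KRT4 and KRT13. The transcription factor p63, encoded by Trp63, maintains the basal layer, and the outer layers build a cornified envelope from involucrin, loricrin, envoplakin and periplakin that transglutaminases crosslink.

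Of the 60 members, 58 had a probe matched by its transcript accession, 45 of them 1 probe and 13 of them 2. No probe was matched to Flg or Krt83. Signals are given as log2 intensities after quantile normalization between the arrays, and a probe was tested where at least 3 of the 6 arrays held it well above background by the scanner software's own call. By this filter 34 members were tested, 26 keratins and 8 squamous genes, and the brightest probe stood for a gene with several. Of the other 24 members with a probe, 14 were above background on no array and 10 on 1 or 2 arrays. A gene was called where limma gave an unadjusted p under 0.01 and a fold change of at least 1.4, the thresholds of the study's methods. Adjusted p-values are limma's, adjusted by Benjamini-Hochberg across the 14847 genes that were tested. The p-values set each difference against the spread between the 3 arrays within each genotype, which limma moderates across all tested genes. With so few arrays the smallest p of an exact permutation test is 0.1.

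Sox17 itself read 12.21, 12.07 and 12.22 on the Sox17f/f arrays and 9.75, 9.59 and 9.81 on the Sox17ed/ed arrays, a fall by 2.45 on the log2 scale (SE 0.09, limma adjusted p = 2.66e-05). All 6 arrays lay on 1 slide with each genotype in its own line, so position on the slide and genotype cannot be told apart. In whole tissue, fewer cells of a type and less RNA per cell cannot be told apart either.

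Keratins moved in both directions. Krt15, Krt5, Krt36, Krt42, Krt19, Krt7 and Krt8 were higher in Sox17ed/ed uteri, and Krt81, Krt87, Krt23, Krt2 and Krt20 were lower. Among the squamous genes Col17a1, Evpl and Sfn were higher and Tgm1 was lower. In all, 16 of the 34 tested members were called, against 12.5% of all genes tested. The 10 members called higher compare with 6.04% of all genes in that direction, and the 6 called lower with 6.47%. At an adjusted p under 0.05 alone 17 members passed, against 18.9% of all genes. The arrays of the genotypes did not overlap for 21 of the 34, against 40.6% of all genes. The median log2 difference was 0.15 over the tested members and -0.00 over all genes. Krt15 and Krt5 passed the filter only through the Sox17ed/ed arrays, where they were high, so for them the filter and the difference are not independent. Of the 23 tested members above background on all 6 arrays, 8 were called in this same fit. The matching share of all genes is not given, so no excess is read from that count.

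**Figure D1:**
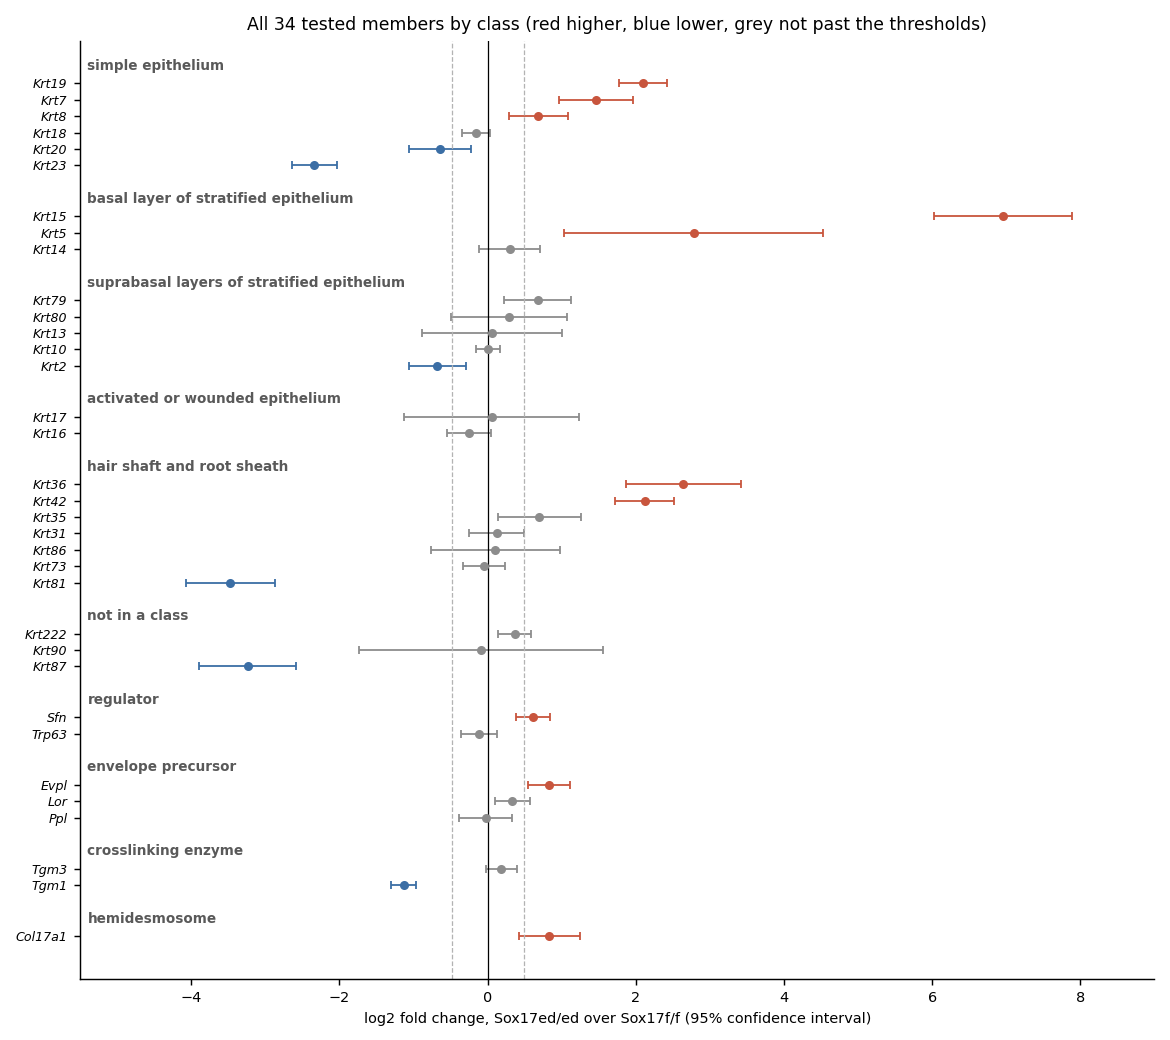
Log2 fold change (Sox17ed/ed over Sox17f/f, x axis) of the 34 tested members, grouped by the epithelium in which each keratin is typical or by the role of the squamous gene. Points are limma estimates and bars are 95% confidence intervals, dashed lines mark a fold of 1.4, and simple epithelial keratins lie on both sides of 0, from 2.10 for Krt19 to -2.34 for Krt23.

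Among the keratins of simple epithelium, 5 of 6 listed, all of them tested, were called, 3 higher and 2 lower. Krt19, a type I keratin that lacks most of the usual tail domain, read 11.86, 12.11 and 12.11 on the Sox17f/f arrays and 14.32, 13.88 and 14.16 on the Sox17ed/ed arrays. It was 4.27-fold higher (log2 difference 2.10, SE 0.13, limma adjusted p = 0.000222), with every Sox17ed/ed array above every Sox17f/f array. Krt7, a type II keratin of glandular and ductal epithelia, read 9.77, 10.21 and 9.58 against 11.62, 11.04 and 11.29. That is a 2.76-fold higher level (log2 difference 1.46, SE 0.21, limma adjusted p = 0.00534). Krt8, the type II partner of KRT18, rose less, from 11.65, 11.74 and 11.60 to 12.50, 11.97 and 12.57 (log2 difference 0.69, SE 0.17, limma adjusted p = 0.0355).

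Krt18 itself did not pass, although every Sox17ed/ed array lay below every Sox17f/f array. Its arrays read 14.79, 14.68 and 14.64 in Sox17f/f and 14.61, 14.44 and 14.58 in Sox17ed/ed, a log2 difference of -0.16 with a 95% interval from -0.35 to 0.03 (limma adjusted p = 0.214). The interval of Krt8, from 0.28 to 1.09, did not overlap that of Krt18, although the difference between these genes was not tested. Krt23 fell the most in this class. This type I keratin of glandular epithelia read 12.58, 12.32 and 12.11 on the Sox17f/f arrays and 9.93, 9.99 and 10.08 on the Sox17ed/ed arrays, 5.05-fold lower (log2 difference -2.34, SE 0.13, limma adjusted p = 0.000115). Krt20, known from intestinal and urothelial surface cells, fell by 0.64 on the log2 scale (SE 0.17, limma adjusted p = 0.0488), with 4.59, 4.93 and 5.12 against 3.99, 4.44 and 4.28. Only 1 Sox17ed/ed array was above background for Krt20.

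Of the 3 basal keratins, all of them tested, 2 were called, both higher. Krt15, a type I keratin of basal cells, read 2.37, 2.34 and 3.36 on the Sox17f/f arrays, none of them well above background, and 10.22, 9.05 and 9.67 on the Sox17ed/ed arrays. It was at least 62.8-fold higher in Sox17ed/ed uteri (limma adjusted p = 0.000125). Such a bound sets the mean of the bright genotype against, on each dim array, the higher of the probe's own signal and the lowest signal that was well above background. It holds for this background correction only: the normexp differences of Krt15 and Krt5, given below, were smaller than their bounds. Krt5, the type II keratin of basal cells, read 3.13, 3.37 and 3.23 on the Sox17f/f arrays, again none above background, and 7.80, 4.94 and 5.33 on the Sox17ed/ed arrays. It was at least 5.25-fold higher (limma adjusted p = 0.0446), but Sox17ed/ed replicate 1 stood far above the other two arrays, and without it the bound was 2.83-fold.

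Without that array the log2 difference of Krt5 was 1.89 in place of 2.78, and its call held. The call was lost without any 1 of the Sox17f/f arrays (2.72, 2.85 and 2.77 without replicates 1, 2 and 3) or without Sox17ed/ed replicate 3 (3.13). A second Krt5 probe, not tested, read 3.30, 3.01 and 3.86 in Sox17f/f and 3.49, 1.95 and 2.49 in Sox17ed/ed and was above background on 1 Sox17f/f array only. Krt14, the type I partner of KRT5, was above background on all 6 arrays and did not pass. Its levels of 5.54, 5.22 and 5.16 overlapped with 5.92, 5.46 and 5.43 (log2 difference 0.30, 95% interval -0.11 to 0.70, limma adjusted p = 0.271).

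**Figure D2:**
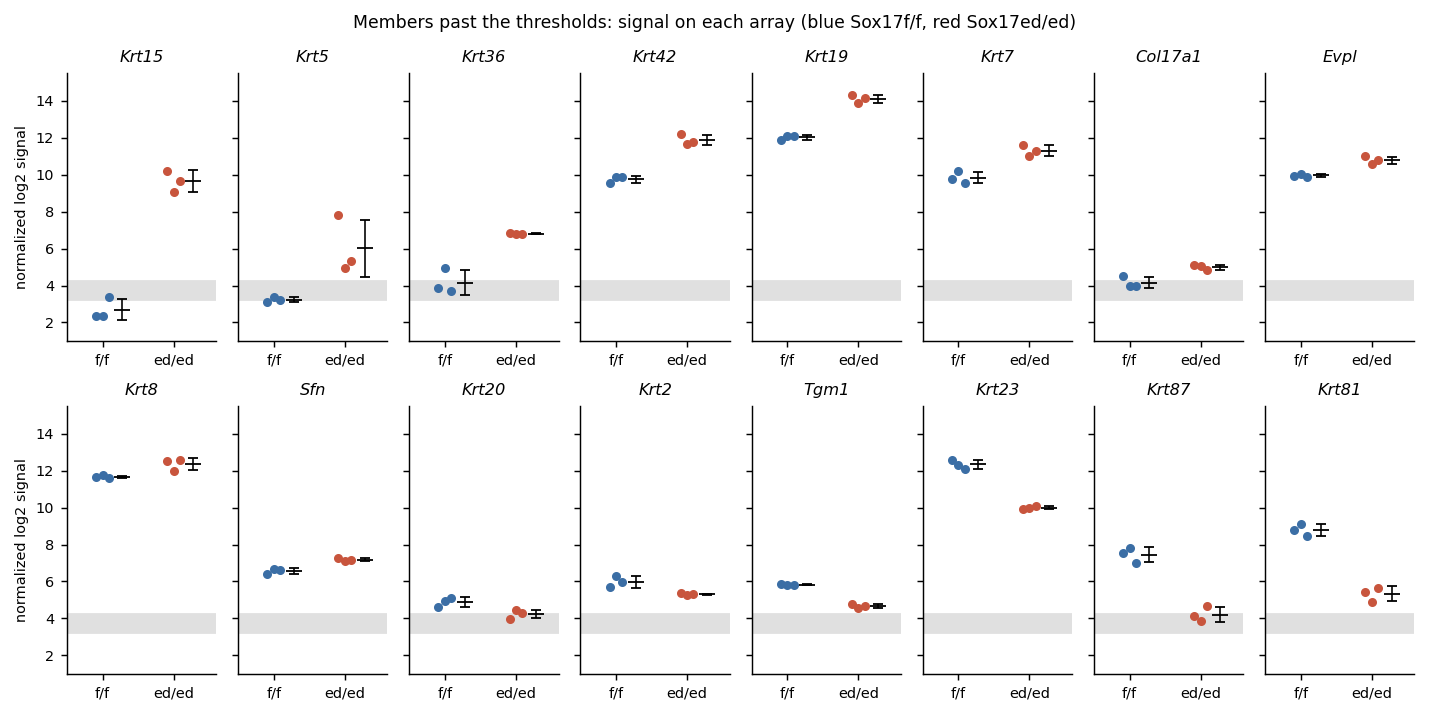
Normalized log2 signal (y axis) on each of the 6 arrays for the 16 members past the thresholds, ordered from the highest to the lowest log2 fold change. Points are single uteri, black bars are the mean and SD of 3 arrays, and the grey band spans the lowest signals that were well above background on the arrays. Krt15 and Krt5 lie within or under the band in Sox17f/f, while Krt19 and Krt23 are bright in both genotypes.

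Keratins of the suprabasal layers were mostly at or near background. Of 12 listed, 5 were tested and 1 was called, Krt2, which fell. Krt1, Krt9, Krt24, Krt76 and Krt77 were above background on no array, and Krt4 and Krt78 on 1, a Sox17f/f array. Krt2, a type II keratin of the upper epidermis, read 5.67, 6.32 and 5.98 against 5.35, 5.29 and 5.30 (log2 difference -0.68, SE 0.16, limma adjusted p = 0.0331). Its second probe was above background on no Sox17f/f array and 1 Sox17ed/ed array, with 1.85, 1.86 and 1.90 against 2.72, 4.35 and 4.997, and was not tested. Krt10, the partner of KRT1 in cornifying cells, read 8.66, 8.75 and 8.74 against 8.72, 8.66 and 8.80, a log2 difference of 0.01 with an interval from -0.15 to 0.17. Its second probe had a log2 difference of -0.48 (limma adjusted p over all tested probes = 0.0577).

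Krt79, a type II keratin of sebaceous and hair follicle ducts, did not overlap between the genotypes but missed the threshold (log2 difference 0.67, SE 0.19, limma adjusted p = 0.0553). Krt80 had a difference of 0.29 with an interval from -0.49 to 1.07. Neither keratin of activated or wounded epithelium passed: Krt16 gave a log2 difference of -0.25 and Krt17 of 0.05 with an interval from -1.13 to 1.24. Krt12, the keratin of the cornea, was not tested, and 1 of its 2 probes was above background on 1 Sox17f/f array.

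Krt13, a type I keratin of moist stratified epithelia, gave different answers by probe, as did Trp63. The probe that stands for Krt13 read 4.69, 4.25 and 5.35 in Sox17f/f and 5.34, 4.13 and 4.99 in Sox17ed/ed, a difference of 0.06 with an interval from -0.89 to 1.01. The other Krt13 probe was above background on no Sox17f/f array, at 2.48, 1.65 and 3.12, and on all 3 Sox17ed/ed arrays, at 5.06, 5.65 and 5.34. By that probe Krt13 was at least 3.32-fold higher (limma adjusted p over all tested probes = 0.00385). That probe passed the filter only through the Sox17ed/ed arrays, so its filter and its difference are not independent.

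For Trp63, the bright probe A_55_P2161055 read 11.51, 11.38 and 11.24 on the Sox17f/f arrays and 11.16, 11.39 and 11.24 on the Sox17ed/ed arrays. The genotypes overlapped, with a log2 difference of -0.12 (95% interval -0.36 to 0.13, limma adjusted p = 0.468). The other probe, A_51_P216550, was above background on no Sox17f/f array, at 3.25, 3.16 and 3.12, and read 7.88, 7.87 and 7.65 on the Sox17ed/ed arrays. By this probe Trp63 was at least 18.1-fold higher in Sox17ed/ed uteri (log2 difference 4.62, SE 0.09, limma adjusted p over all tested probes = 7.62e-06). This probe also passed the filter only through the Sox17ed/ed arrays, so here too the filter and the difference are not independent. These are all the Trp63 probes that were matched. They are annotated to different Trp63 transcripts, of which the RefSeq table lists 11, and which transcripts each probe detects was not tested. Of the 13 members with 2 probes, 4 had both tested: Krt36 was called higher by both, Krt10 by neither, and Krt13 and Trp63 by 1 probe each.

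**Figure D3:**
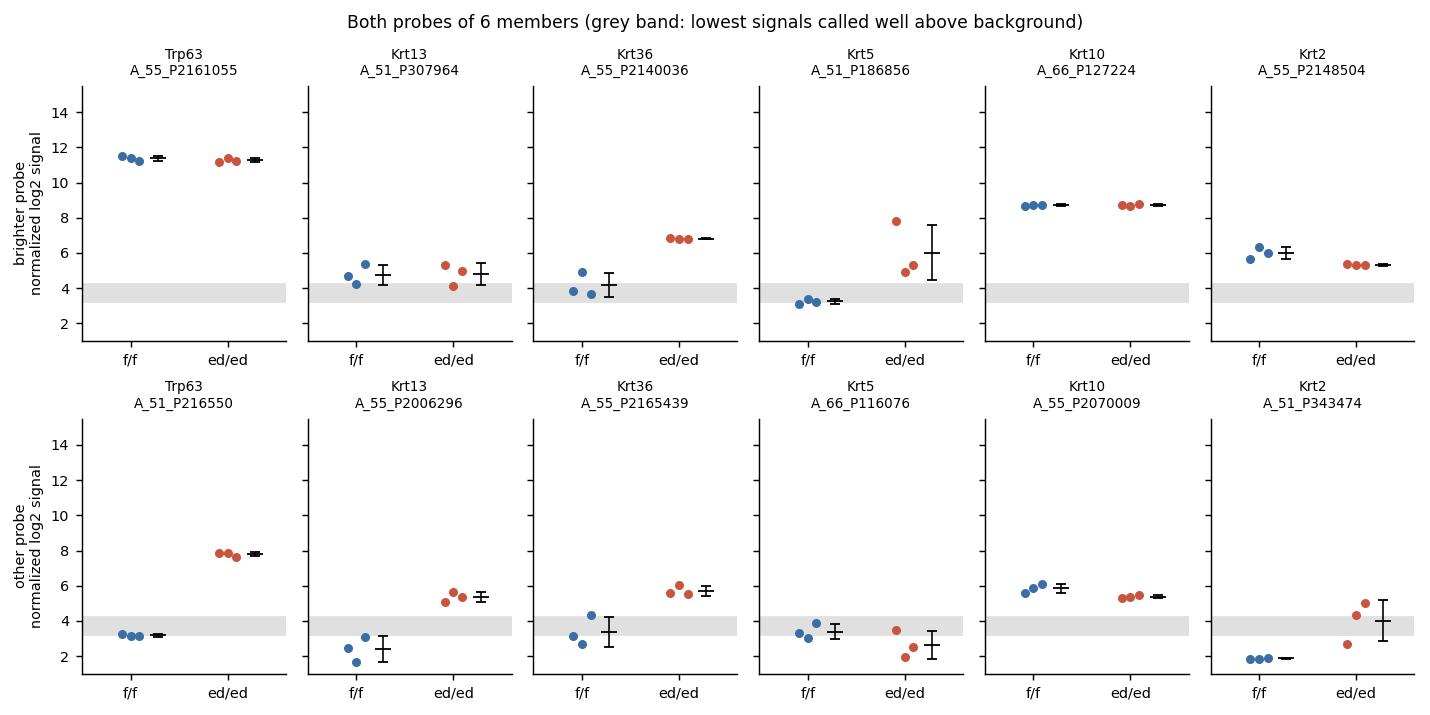
Normalized log2 signal (y axis) of both probes of 6 members on the 6 arrays, with the probe that stood for the gene in the upper row and the other probe in the lower row. Points are single uteri, black bars are the mean and SD of 3 arrays, and the grey band spans the lowest signals well above background. The upper Trp63 probe overlaps between genotypes, while the lower one lies at 3.12 to 3.25 in Sox17f/f and 7.65 to 7.88 in Sox17ed/ed.

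Keratins of the hair shaft, root sheath and nail were the largest class, 22 listed, of which 7 were tested and 3 called, 2 higher and 1 lower. Krt36, a type I hair keratin, read 3.85, 4.94 and 3.68 on the Sox17f/f arrays, with 1 of them above background, and 6.82, 6.77 and 6.81 on the Sox17ed/ed arrays. It was 6.25-fold higher (log2 difference 2.64, SE 0.32, limma adjusted p = 0.00295). Its second probe had a log2 difference of 2.34 in the same direction (limma adjusted p over all tested probes = 0.0145). Krt42, a type I keratin of the nail, was above background on all arrays and 4.35-fold higher, with 9.54, 9.87 and 9.87 against 12.19, 11.67 and 11.78 (log2 difference 2.12, SE 0.16, limma adjusted p = 0.000445). Neither gene overlapped between the genotypes.

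Krt81, a type II hair cortex keratin, read 8.78, 9.13 and 8.48 on the Sox17f/f arrays and 5.45, 4.87 and 5.66 on the Sox17ed/ed arrays, 11.1-fold lower (log2 difference -3.47, SE 0.25, limma adjusted p = 0.000334). Krt87, placed in no class here, fell with it from 7.56, 7.79 and 6.99 to 4.12, 3.86 and 4.65, 9.43-fold lower (log2 difference -3.24, SE 0.27, limma adjusted p = 0.000619), and only 1 Sox17ed/ed array was above background. The related hair keratin Krt86 read 5.53, 5.23 and 4.11 against 5.18, 4.90 and 5.11 (log2 difference 0.11, 95% interval -0.76 to 0.97). Its Sox17f/f signal was already near background, so a fall as large as that of Krt81 or Krt87 could not have been seen with its probe. Whether these probes take up signal from close paralogs was not tested. The other tested hair keratins, Krt35, Krt31 and Krt73, had log2 differences of 0.70, 0.12 and -0.05, and none was called. Krt25, Krt26, Krt27, Krt72 and Krt74 were above background on 1 Sox17f/f array and Krt28 on 2, all of them on no Sox17ed/ed array, and were not tested. Every Sox17f/f array held a larger share of spots above background (60.7% to 65.7%) than any Sox17ed/ed array (56.8% to 59.4%). Detection in 1 genotype alone was not tested as a difference between the genotypes. Of the unclassed keratins, Krt222 had a log2 difference of 0.37 (limma adjusted p = 0.0387), under the fold threshold, and Krt90 of -0.09. By filament type, 6 of 14 tested type I keratins were called (4 higher, 2 lower) and 6 of 11 type II keratins (3 higher, 3 lower).

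Many keratin genes lie side by side in 2 clusters, and calls of both directions occurred within each. Their order was taken from the RefSeq gene table of GRCm38.p6. In the cluster that holds most type I genes, Krt20 and Krt23, which were both lower, are neighbours. Krt36, Krt13, Krt15 and Krt19 follow each other, and of these Krt36, Krt15 and Krt19 were higher, as was Krt13 by its second probe. Krt42, also higher, closes that cluster. In the cluster with most type II genes Krt7, which was higher, lies beside Krt87, which was lower, and Krt88, above background on no array, separates Krt87 from Krt81. Krt8 and Krt18 lie next to each other at the end of that cluster.

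**Figure D4:**
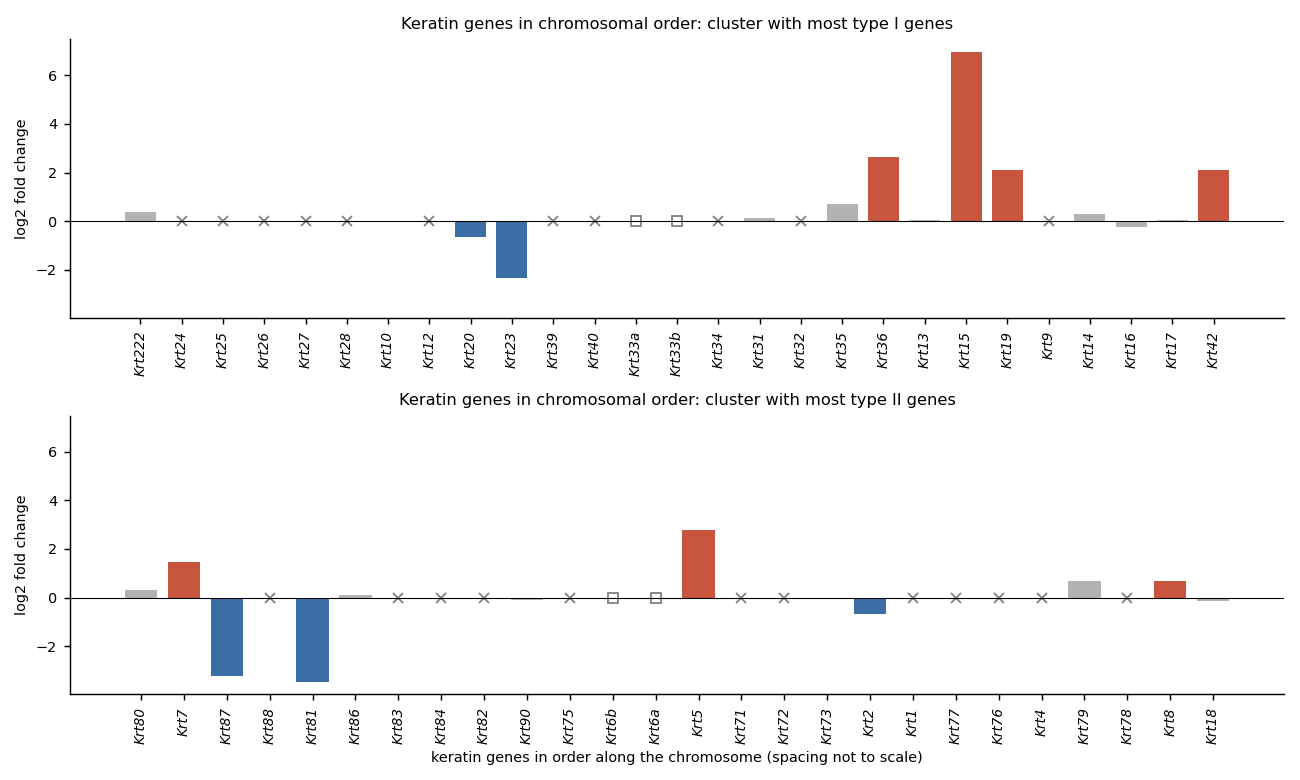
Log2 fold change (y axis, Sox17ed/ed over Sox17f/f) of keratin genes in their order along the chromosome, with spacing not to scale, for the cluster of mostly type I genes (upper) and of mostly type II genes (lower). Red bars were called higher, blue bars lower and grey bars neither, crosses are members not tested and open squares are genes outside the naming rule. Krt20 and Krt23 form a neighbouring pair of falls, and Krt36, Krt15 and Krt19 a stretch of rises around Krt13; the bar of Krt10, at 0.01, is too small to see.

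Promoters of 42 of the 60 members were found in the RefSeq promoter table of GRCm38.p6. Shown here are 5 keratins of the type I and type II clusters, chosen as 3 that were higher and the neighbouring pair that was lower. Each run holds the 250 bases before the annotated start, 5′ to 3′ on the gene's strand. Capitals mark matches, on either strand, to TATAAA (the TATA box), TGANTCA (the AP-1 element), ACAAT (the core of a SOX factor site), GCCNNNGGC (the AP-2 element) or the consensus estrogen response element. Krt5, which was higher, lies at chr15:101712906-101713155 on the minus strand. Krt36 and Krt42, also higher, lie at chr11:100105627-100105876 and chr11:100269952-100270201, both on the minus strand. Krt20 and Krt23, which were lower, lie at chr11:99438154-99438403 and chr11:99493121-99493370, both on the minus strand.
Krt5: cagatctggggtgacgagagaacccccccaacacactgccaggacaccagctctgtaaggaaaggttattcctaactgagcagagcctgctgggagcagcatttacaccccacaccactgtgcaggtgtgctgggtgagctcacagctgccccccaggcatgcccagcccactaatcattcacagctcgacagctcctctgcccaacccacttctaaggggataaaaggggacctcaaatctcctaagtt
Krt36: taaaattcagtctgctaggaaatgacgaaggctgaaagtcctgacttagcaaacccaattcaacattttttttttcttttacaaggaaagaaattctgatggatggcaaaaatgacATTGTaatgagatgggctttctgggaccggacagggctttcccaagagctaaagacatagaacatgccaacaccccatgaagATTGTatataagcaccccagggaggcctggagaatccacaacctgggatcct
Krt42: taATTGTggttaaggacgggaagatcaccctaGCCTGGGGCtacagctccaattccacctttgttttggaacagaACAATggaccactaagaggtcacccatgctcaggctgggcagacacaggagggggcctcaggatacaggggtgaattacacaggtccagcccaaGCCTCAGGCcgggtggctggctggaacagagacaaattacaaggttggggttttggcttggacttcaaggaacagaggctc
Krt20: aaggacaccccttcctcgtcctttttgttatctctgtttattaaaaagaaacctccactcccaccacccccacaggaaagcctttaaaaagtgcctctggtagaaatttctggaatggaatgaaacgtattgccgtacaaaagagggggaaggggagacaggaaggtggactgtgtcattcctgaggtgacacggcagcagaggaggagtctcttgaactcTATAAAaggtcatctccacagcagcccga
Krt23: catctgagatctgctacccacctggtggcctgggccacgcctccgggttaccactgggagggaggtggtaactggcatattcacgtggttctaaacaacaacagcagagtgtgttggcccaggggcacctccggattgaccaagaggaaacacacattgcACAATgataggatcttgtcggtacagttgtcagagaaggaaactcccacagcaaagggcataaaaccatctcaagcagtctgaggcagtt

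The SOX core was found in promoters of both directions: 2 matches in Krt36, beginning 134 and 52 bases before the start, 2 in Krt42, beginning 248 and 175 bases before it, and 1 in Krt23, 90 bases before it. The promoters of Krt7 and Krt8, also higher, and of Krt2, also lower, held no SOX core and are not shown. Krt42 also held 2 AP-2 matches, and Krt20 a TATA box 29 bases before the start. The run of Krt5 held no match to these 5 motifs, which says only that those letters are not in this window. Over all member promoters, 10 of 44 (22.7%) held the SOX core, against 27.7% of 32851 mouse promoters of the same length. TATAAA was held by 21 of 44 (47.7%), against 12.4% of all promoters. Those were mostly members that were not tested: 14 of the 21 untested members with a promoter held it, among them Flg, which had no probe. Of the 11 called members with a promoter 2 held it, Krt20 and Col17a1. AP-1 matches were found in 5 member promoters (11.4% against 6.75%), AP-2 matches in 5 (11.4% against 13.7%) and the estrogen response element in 0 (against 0.0639%). A match is a description of sequence and was not tested as a binding site.

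Of the squamous genes other than Trp63, 3 were called higher and 1 lower. Sfn, which encodes 14-3-3 sigma, a cell cycle checkpoint protein of epithelia, read 6.40, 6.67 and 6.62 against 7.27, 7.12 and 7.15 (log2 difference 0.62, SE 0.09, limma adjusted p = 0.00678). Evpl, which encodes the envelope precursor envoplakin, read 9.95, 10.07 and 9.87 against 10.99, 10.60 and 10.77 (log2 difference 0.82, SE 0.12, limma adjusted p = 0.00528). Both were higher without overlap. Col17a1, the hemidesmosome collagen that anchors basal cells, read 4.54, 3.99 and 3.97 against 5.09, 5.05 and 4.85, 1.78-fold higher (limma adjusted p = 0.0204), with 2 of 3 Sox17f/f arrays above background. Tgm1, the membrane transglutaminase that crosslinks the envelope, went the other way, from 5.84, 5.79 and 5.80 to 4.77, 4.58 and 4.67, 2.19-fold lower (limma adjusted p = 0.000208).

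The remaining envelope genes did not pass. Lor, which encodes loricrin, read 8.50, 8.35 and 8.31 against 8.61, 8.67 and 8.88, a log2 difference of 0.33 (95% interval 0.10 to 0.57, limma adjusted p = 0.0636). Ppl, which encodes periplakin, the partner of envoplakin, had a difference of -0.03 with an interval from -0.38 to 0.33. Tgm3, a second crosslinking enzyme, had 0.19 with an interval from -0.02 to 0.39. Ivl, which encodes involucrin, was not tested, since each of its 2 probes was above background on 1 Sox17f/f array and no Sox17ed/ed array. One probe read 1.71, 2.13 and 3.52 against 2.97, 3.33 and 3.87, and the other 2.42, 2.87 and 4.89 against 2.73, 4.31 and 2.08.

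Of the 16 called members, 9 kept their call, at the main thresholds, in every processing alternative that gave them a value: Evpl, Krt7, Krt15, Krt19, Krt23, Krt36, Krt42, Krt81 and Krt87. Of these 9, Evpl, at 1.77-fold, did not reach the stricter fold of 2. Besides Krt5, the calls of Krt2, Krt8, Krt20, Col17a1, Sfn and Tgm1 were lost in at least 1 processing alternative. Krt8 lost its call without Sox17f/f replicate 1, 2 or 3 (0.68, 0.72 and 0.65) and without Sox17ed/ed replicate 1 or 3 (0.61 and 0.57). Krt2 lost it without Sox17f/f replicate 3 (-0.68) and without Sox17ed/ed replicate 1, 2 or 3 (-0.69, -0.66 and -0.67). Krt20 lost it without Sox17f/f replicate 2 or 3 (-0.62 and -0.52) and without Sox17ed/ed replicate 1 or 3 (-0.52 and -0.67). Col17a1 lost it without Sox17ed/ed replicate 1 or 2 (0.78 and 0.81). No called member changed direction. Under normexp background correction, whose offset of 50 raises every signal and so draws dim values together, log2 differences were 3.76 for Krt15, 0.99 for Krt5, 1.01 for Krt36, -2.12 for Krt81, -1.65 for Krt87, 2.04 for the dim Trp63 probe and 0.63 for the dim Krt13 probe. There Tgm1 (-0.38), Sfn (0.32), Col17a1 (0.24), Krt2 (-0.22), Krt20 (-0.20) and Krt5 lost their calls.

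Other genes of the squamous programme, 84 in lists by role, were read beside the members. Of these 51 were tested, 16 were called higher and 4 lower, with a median log2 difference of 0.37. That is 39.2% called, against 12.5% of all genes tested, of which 6.04% were higher and 6.47% lower. The lists were chosen with earlier results of these data known. Among genes of basal adhesion, 3 of 10 tested were called, all higher. Among them were Lamb3, a chain of the laminin under basal cells, by 1.74, and Col7a1, the anchoring fibril collagen, by 1.06. The list as a whole was not raised: 5 of the 10 had a positive log2 difference, with a median of 0.10. Under the fold threshold, Itga6 (-0.46) and Itgb4 (-0.43) were lower and Itga3 (0.47) was higher. Each of these had a limma adjusted p under 0.05 and no overlap between the genotypes. Among desmosome genes of stratified epithelium, 2 of 7 tested were called higher, Dsp (0.92), which links desmosomes to keratin filaments, and Perp (0.92), a p63 target. The desmosomal genes Dsg1a, Dsg1b, Dsc1, Dsc3 and Pkp1 were above background on no array.

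Among cornified envelope genes 1 of 5 tested was called, the transglutaminase Tgm5, higher by 1.74, and 9 of the 13 others listed were above background on no array. Barrier genes held 5 higher and 2 lower calls among 12 tested. Calml3, a calmodulin-like protein of stratified epithelia, read 5.47, 5.14 and 4.62 against 11.06, 10.95 and 10.67, a log2 difference of 5.81 (SE 0.23, limma adjusted p = 3.48e-05). Cers3, a ceramide synthase of the skin barrier, and Gjb6, a gap junction protein, were higher by 2.64 and 2.37, the latter with 1 Sox17f/f array above background. Among 17 tested transcription factors 5 were higher and 2 lower. Grhl3, a regulator of barrier formation, read 1.84, 2.93 and 1.999 on the Sox17f/f arrays, none above background, and 7.47, 6.94 and 7.52 on the Sox17ed/ed arrays, at least 12.9-fold higher (limma adjusted p = 0.000196). Grhl3 passed the filter only through the Sox17ed/ed arrays, so its filter and its difference are not independent. Zfp750 and Ehf, epithelial transcription factors, were higher by 2.04 and 1.47, with Zfp750 above background on 1 Sox17f/f array.

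**Figure D5:**
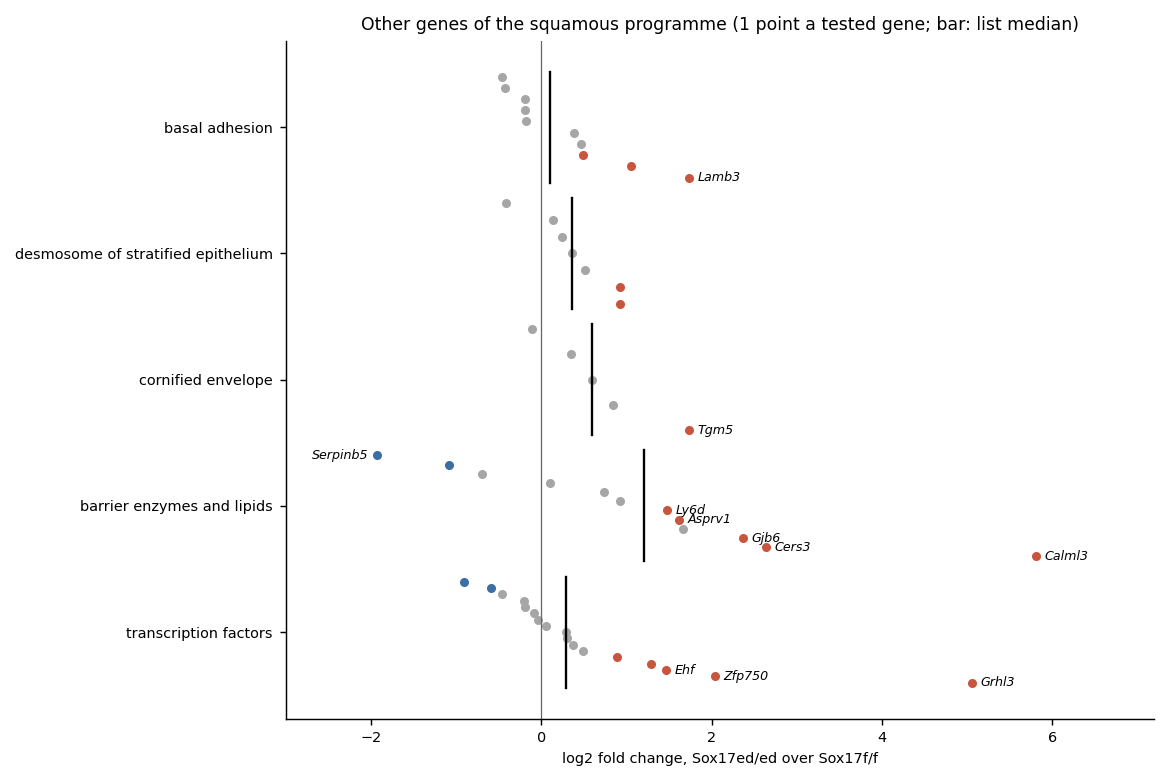
Log2 fold change (x axis, Sox17ed/ed over Sox17f/f) of the 51 tested genes of the squamous programme that are not members, in lists by role (y axis). Each point is a gene, red if called higher, blue if called lower and grey otherwise, and black bars are list medians. Calml3 lies farthest from 0, at 5.81, the point of Grhl3 is a fitted value against Sox17f/f arrays that were all not above background (at least 12.9-fold higher), and most genes of basal adhesion and of the desmosome lie within 1 of it.

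Markers of other cells were read beside these values as sums of linear signal over the tested genes of each list. Every listed marker of uterine epithelium, stroma and smooth muscle passed the filter. Of 12 uterine epithelial markers, 4 were called higher and 4 lower, and their sum ran from 50692 to 54924 on the Sox17f/f arrays and from 189466 to 223654 on the Sox17ed/ed arrays. Most of that gap was 1 gene, Sprr2f, and without it the sums were 48964 to 52164 and 66364 to 80531. Of 15 markers of stratified squamous epithelium that are not members, 5 were tested, 2 were higher and 1 lower, with sums of 476 to 661 and of 2219 to 2763. Without Calml3, counted above among the barrier genes, these sums overlapped, at 440 to 626 and 564 to 634. Of the rest, Krt6b, Dsc3, Dsg1a, Sprr1b, Sprr3, Bnc1 and Pitx1 were above background on no array. Of 12 hair and skin appendage markers, 5 were tested and 2 were higher, with sums of 1872 to 2332 and of 2612 to 3057 (1636 to 2100 and 1571 to 1806 without Msx2), while Krtap3-1, Krtap6-2, Krtap13, Hoxc13 and Foxn1 were above background on no array.

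Of 6 tested mesothelial markers 1 was higher and 1 lower (sums 13400 to 14174 and 16161 to 16318). Stromal markers held 1 call of 11, higher (323085 to 328318 and 291335 to 312910), and smooth muscle markers 1 of 8, lower (482789 to 529898 and 354563 to 427048). Endothelial markers held 1 higher and 1 lower call among 7 (16953 to 20417 and 14329 to 15162). Of these 7, 1 had a positive log2 difference, the median was -0.32, and 6 did not overlap between the genotypes. The smooth muscle median was -0.28, with 1 of 8 positive. Macrophage and leukocyte markers held 1 lower call among 7 (18214 to 18615 and 19664 to 21243). An unadjusted limma p under 0.05 was reached by 5 endothelial, 5 smooth muscle, 6 stromal, 4 mesothelial and 2 macrophage and leukocyte markers. By limma, 0 of 5 tested neutrophil markers were called, and 0 had an unadjusted p under 0.05 (sums 1877 to 2361 and 1916 to 2938). The 8 tested cell cycle genes had 0 calls by limma as well, although 7 had an unadjusted p under 0.05 and 7 did not overlap between the genotypes, with a median log2 difference of 0.46. The sums also overlapped between the genotypes for mesothelium without Wt1 (507 to 560 and 408 to 645), stroma without Dcn (207468 to 215838 and 208573 to 227394), endothelium without Vwf (9912 to 10339 and 9659 to 10045), macrophages and leukocytes without Csf1r (10389 to 11093 and 9994 to 10874) and neutrophils without Retnlg (1168 to 1757 and 830 to 1216). The cell cycle sums were 16128 to 20865 and 23416 to 25974. They stayed apart without Mki67 (11511 to 13197 and 14704 to 16436), as did the smooth muscle sums without Tagln (308284 to 338363 and 226784 to 261308). The part of these cell types in the keratin changes was not tested.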

How the data were processed

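The authors deposited the scanner output of 6 arrays, made with Feature Extraction 11.0.1.1 per the file headers (the submitters' processing notes name 9.1). Each spot's deposited processed intensity, already corrected for background within the array but not normalized between arrays, was taken as the starting value. A deposited table of processed values lay within 0.191% of it.

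Log2 intensities were quantile normalized, as the methods state, control spots and outlier spots were left out, and spots of a probe were averaged. Probes were named through their transcript accession and the GRCm38.p6 gene table. The array is annotated on mm9, so no position of a probe or measured gene is given, and promoters carry their own table's build. Of 55681 probes, 26582 matched 20145 genes. Between 56.8% and 65.7% of the spots were well above background on each array, 0 were saturated, and the number of arrays limits the precision. Genotypes were compared with the lmFit and eBayes steps of limma 3.58.1 (R 4.3.3), over genes and, for members with several probes, over the 19584 named probes that passed the filter. Intervals are 95% intervals. The steps were tested on simulated data. Tallies and plots used Python 3.11.15, pandas 2.3.3, numpy 2.4.6 and matplotlib 3.10.9.

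The text names every called member, every member with probes above background in 1 genotype only, all 10 squamous members, the simple, basal and suprabasal keratins, and up to 3 called genes of each squamous list with the largest change, except 1 gene that is not reported here. Krt31, Krt35, Krt73, Krt79, Krt80, Krt86, Krt222, Krt90, Krt12, Krt16 and Krt17 were named with their values seen. So were Itga3, Itga6 and Itgb4, the genes above background on no array, and the marker genes left out of a sum (those that moved it most). Members and lists were chosen with earlier results of these data known. Alternatives tried were scaling arrays to their 75th percentile in place of quantiles, normexp correction with an offset of 50 (on the median signal), no filter, all 6 arrays above background, the mean of a gene's probes, an eBayes trend, an ordinary linear model, the deposited table, a replicate block, other thresholds, and each array left out in turn. The probe with the smallest p was added after seeing the data.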

Additional observations from a re-analysis of the deposited data

How the results depend on the processing

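All genes called numbered 2808 at an adjusted p under 0.05 alone and 817 at a fold of at least 2. Members called were 10 at that fold. With only probes above background on all 6 arrays, the fit was repeated over 13893 genes. There 9 members and 7 keratins were called: 8 members kept their calls from the main fit and 1 gained a call. An ordinary linear model called 13 genes of the squamous programme, and the cause of that was not tested. With the replicate number as a block, 1796 genes, 14 members, 10 keratins and 18 programme genes were called. Krt2, Krt5 and Krt8 lost their calls, and Krt79 gained one. The numbers do not pair the uteri: deviations of same-numbered arrays correlated at 0.06, -0.11 and -0.00. Leaving out 1 array in turn gave 1665 to 2034 genes, 12 to 14 members, 8 to 11 keratins and 16 to 22 programme genes called, and a member median of 0.14 to 0.28.

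Some uncalled log2 differences changed sign. Krt10 was -0.012 with normexp, -0.24 as the mean of its probes, -0.0029 from the deposited values and -0.48 by the probe with the smallest p. Krt17 was -0.035 and Krt86 -0.011 after the 75th percentile shift, and Krt86 was -0.083 with normexp. Trp63 was 2.25 as the mean of its probes and 4.62 by the probe with the smallest p. With 1 array left out, Krt10 ran from -0.026 to 0.043, Krt13 from -0.20 to 0.40, Krt17 from -0.41 to 0.47, Krt31 from -0.018 to 0.28, Krt73 from -0.15 to 0.056, Krt80 from -0.10 to 0.51, Krt86 from -0.32 to 0.39, Krt90 from -0.67 to 0.65 and Ppl from -0.12 to 0.12. Signal near background limits the dim probes, and for these the fold depends on the background correction.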
